A study of Homo sapiens with 8 samples.

Results

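The proteasome genes described here are 39 human genes: the subunits of the 20S catalytic core, those of the 19S regulatory cap, the inducible catalytic subunits, the activators and the assembly factor POMP. A gene was included where the platform's gene table gave its symbol to a probe set, without regard to its level. Of the 39 genes, 36 were measured under 1 gene name, on 42 of the 21214 probe sets that carry a gene name. They comprise 14 genes of the 20S core, 14 of the 19S cap (5 ATPases and 9 other subunits), 7 inducible subunits and activators, and POMP. PSMC5, PSMD7 and PSMD13 were not analysed here. The RNA came from T47D, a luminal breast carcinoma line, in which EglN2 (PHD1), a prolyl hydroxylase, was targeted by a conditional short hairpin RNA (shRNA). There were 4 groups of 2 arrays: the EglN2 shRNA line after 48 h of doxycycline (day 2) and without it (0 h, day 0), and a line with the scrambled control hairpin (Scr) at day 2 and at day 0. Both lines had been infected with lentivirus and carried their hairpin at day 0 as well, and doxycycline was used at 1 ug/ml. The labels do not say whether a line was a clone or a pool of infected cells. Nor do they say whether the replicates were separate cultures, so the p-values below measure only the spread between these arrays, which may be technical. Day 2 cells also had 48 h of doxycycline in the Scr line. Its day 2 minus day 0 difference therefore carries the antibiotic, the time in culture and any induction of the scrambled hairpin, without the EglN2 hairpin.

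The proteasome degrades proteins tagged with ubiquitin. Its 20S core is a barrel of alpha rings, which gate entry, around beta rings, in which PSMB5, PSMB6 and PSMB7 cut the peptide chain. The 19S cap binds ubiquitin, removes it, and unfolds the substrate with a ring of ATPases. In cells exposed to interferon gamma, PSMB8, PSMB9 and PSMB10 replace the 3 constitutive catalytic subunits, and the PA28 activator, built of PSME1 and PSME2, docks on the core. This alters the peptides supplied to MHC class I molecules. Prolyl hydroxylases of the EglN family mark hypoxia-inducible factor alpha subunits for ubiquitination by the von Hippel-Lindau complex and destruction by the proteasome.

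The promoters of the 3 inducible subunits and of PSME2 are shown because these genes gave the largest differences among the members or sit in the same interferon-responsive group. The sequences are those of RefSeq on GRCh38.p14, from 250 bases before to 50 bases after the annotated start, each printed on the strand of its gene from 5′ to 3′. PSMB8 lies on the minus strand at chr6:32844630-32844929 and PSMB9 on the plus strand at chr6:32853942-32854241, a short distance away in the MHC region. PSMB10 lies on the minus strand at chr16:67936801-67937100 and PSME2 on the minus strand at chr14:24146561-24146860. Capitals mark matches to 4 motifs searched on both strands: GAAANNGAAA, the core of the interferon-stimulated response element; TTCNNNGAA, the gamma-activated site; TGACNNNGC, the core of the antioxidant response element; and CCAAT.
PSMB8: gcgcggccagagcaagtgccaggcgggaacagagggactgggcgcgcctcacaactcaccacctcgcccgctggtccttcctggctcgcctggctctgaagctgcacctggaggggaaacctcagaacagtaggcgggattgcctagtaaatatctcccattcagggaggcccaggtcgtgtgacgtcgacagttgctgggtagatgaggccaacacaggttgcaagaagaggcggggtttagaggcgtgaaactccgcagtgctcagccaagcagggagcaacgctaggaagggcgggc
PSMB9: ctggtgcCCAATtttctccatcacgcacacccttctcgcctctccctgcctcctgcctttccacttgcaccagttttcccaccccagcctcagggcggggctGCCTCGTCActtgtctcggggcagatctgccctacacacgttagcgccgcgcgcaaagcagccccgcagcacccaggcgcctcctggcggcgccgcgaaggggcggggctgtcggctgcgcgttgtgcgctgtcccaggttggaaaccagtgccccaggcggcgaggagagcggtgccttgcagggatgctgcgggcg
PSMB10: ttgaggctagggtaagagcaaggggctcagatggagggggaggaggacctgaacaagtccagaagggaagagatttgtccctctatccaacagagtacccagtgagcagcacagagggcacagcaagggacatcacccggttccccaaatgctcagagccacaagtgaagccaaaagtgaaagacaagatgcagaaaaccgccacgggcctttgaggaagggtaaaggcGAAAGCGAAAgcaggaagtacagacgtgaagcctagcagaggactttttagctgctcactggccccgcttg
PSME2: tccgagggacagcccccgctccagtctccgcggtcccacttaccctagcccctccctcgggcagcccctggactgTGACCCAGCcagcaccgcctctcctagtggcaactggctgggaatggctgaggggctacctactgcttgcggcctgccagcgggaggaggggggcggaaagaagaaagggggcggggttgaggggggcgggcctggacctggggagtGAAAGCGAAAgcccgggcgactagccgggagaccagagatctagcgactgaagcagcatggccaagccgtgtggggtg
The PSMB10 window holds GAAAGCGAAA with its first base at position -21 relative to the start, and the PSME2 window holds the same letters from position -28, with an antioxidant core upstream. The PSMB9 window holds an antioxidant core on the opposite strand, from position -148, and a CCAAT box. The PSMB8 window holds none of the 4 motifs. PSMB9 and TAP1, a peptide transporter gene, are transcribed away from each other, and their windows share 13 bases. In the printed sequences no motif overlaps another.

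A promoter was listed for 34 of the 39 members. The interferon-stimulated core stood in 5 of the 34 (14.7%), against 3.65% of the 27305 promoters in the table, and 3 of these 5 belonged to the inducible subunits and activators (PSMB10, PSME1 and PSME2). The antioxidant core, the letters recognised by the NFE2L factors, stood in 9 of the 34 (26.5%), against 13.6% of all promoters. The gamma-activated site stood in 4 of 34 (11.8%), against 7.88%, and CCAAT in 16 of 34 (47.1%), against 35.7%. These are matches of letters within a short window and say nothing of whether a factor binds there.

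The arrays were Affymetrix Human Gene 1.0 ST, whose probes lie along the transcript, and the values are log2 levels made by the authors with RMA, so that a difference of 1 is a doubling. Array medians lay between 7.81 and 7.86 over the named probe sets, and replicate arrays correlated at 0.992 to 0.996. Of the luminal epithelial markers, 10 were measured, from TFF1 at a mean of 7.92 to KRT18 at 14.10. The leukocyte markers lay between 4.24 (PTPRC) and 7.73 (CD68), the endothelial ones between 5.75 and 6.16, and the fibroblast ones between 4.30 (LUM) and 8.68 (COL1A1). The measured basal epithelial markers, KRT5 and KRT14, lay at 6.82 and 8.15, the latter above TFF1. Immunoproteasome subunits are abundant in leukocytes. On the 8 arrays PTPRC, the dimmest of the leukocyte markers, read between 4.14 and 4.35, and CD68, the brightest, between 7.51 and 7.91. Whether other cells added to the signal of these subunits was not tested. EGLN2 itself, on a probe set that also names the readthrough RAB4B-EGLN2, read 8.26 and 8.29 in the EglN2 shRNA line at day 2 and 8.85 and 9.04 at day 0, against 8.81 and 8.90 in the Scr line at day 2 and 8.97 and 9.00 at day 0. The EglN2 shRNA line at day 2 lay below all other arrays, with a day 2 minus day 0 difference of -0.67 ± 0.107 (SE; adjusted p = 0.134 by limma), which did not pass the threshold of 0.05.

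The first Scr day 0 array stood apart from the rest for these genes. It was the lowest of the 8 arrays for 20 of the 36 members (55.6%), against 19.1% of all named probe sets. It was the highest for none, against 20.9% of all. Over all named probe sets, too, this array had the largest share of lowest and of highest values, so it was extreme in both directions beyond these genes. The first EglN2 shRNA day 0 array was the highest of the 8 for 15 members (41.7%), against 11.3% of all, and the lowest for none, against 8.47% of all. The members are bright, 34 of the 36 lying among the 5304 probe sets with the highest means. In that bright set the Scr array was the lowest for 36.1% and the EglN2 shRNA array the highest for 16.6%. After quantile normalization the Scr array was the lowest for 12 members (33.3%), against 23% of the bright set, and the EglN2 shRNA array the highest for 12 (33.3%), against 10.8%. Each class median that uses the Scr day 0 pair is therefore given below with and without the first Scr day 0 array.

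**Figure D1:**
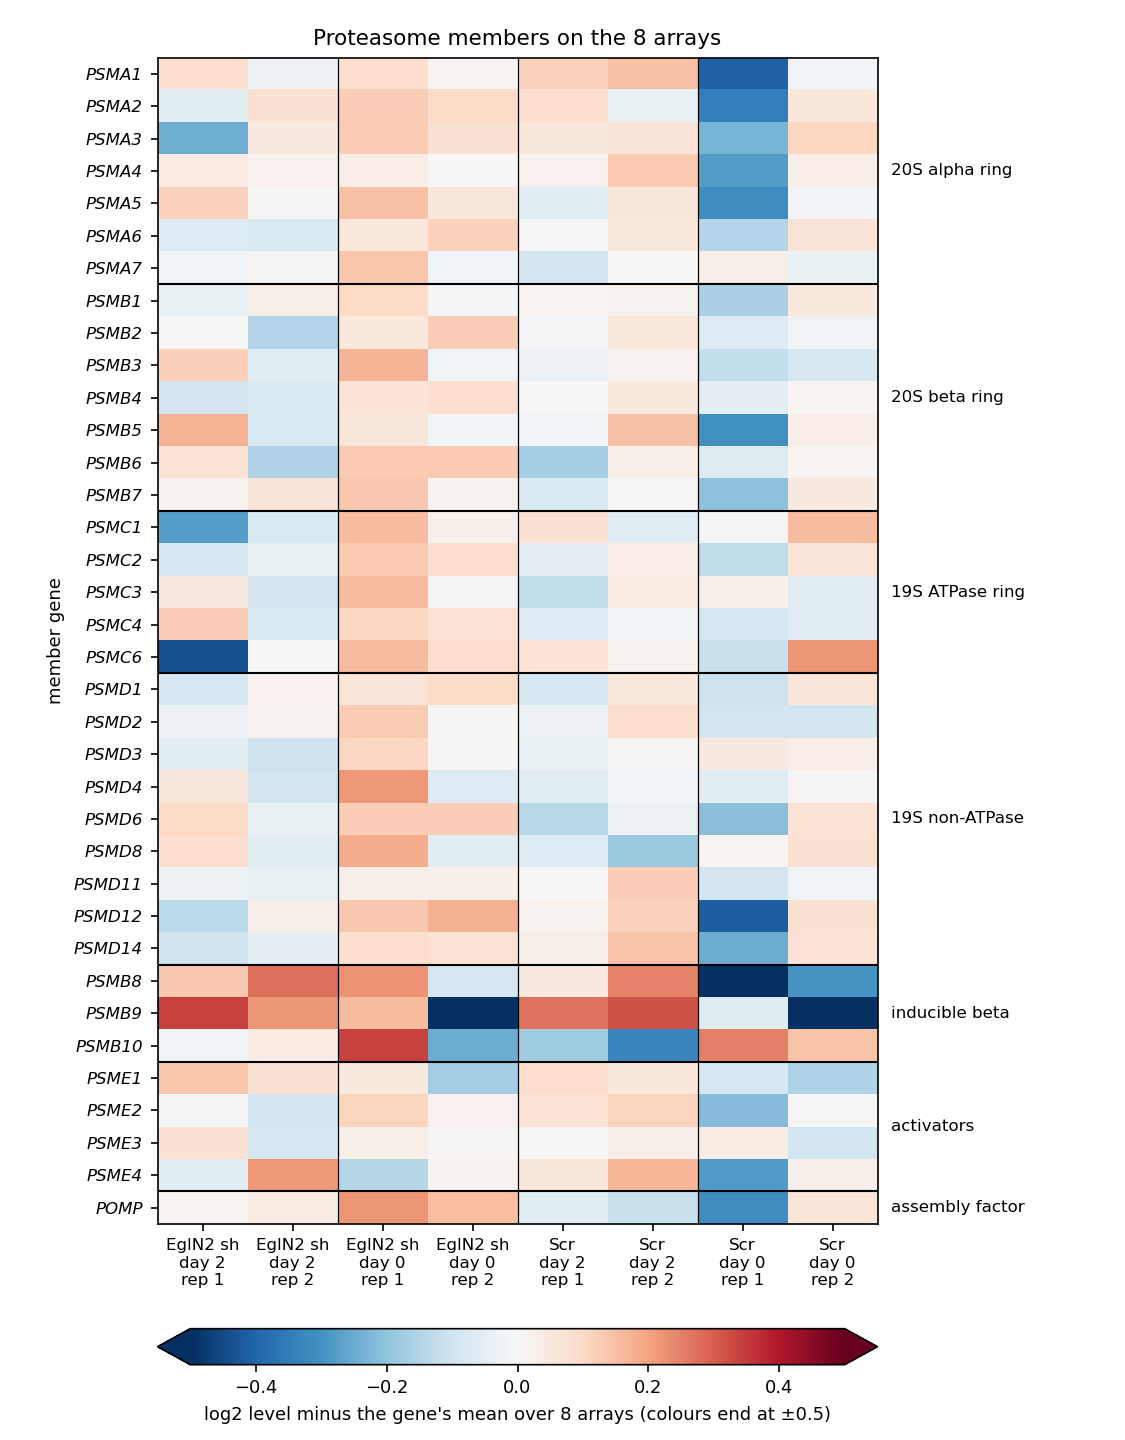
Log2 level of each of the 36 measured members (rows, grouped by role) on each of the 8 arrays (columns, grouped by line and day), shown as the difference from the mean of that gene over the 8 arrays; colours end at 0.5 in either direction. The column of Scr day 0 replicate 1 is blue for most 20S core genes, and PSMB8, PSMB9 and PSMB10 vary more than the rest.

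No proteasome member passed an adjusted p of 0.05 by limma in any of the 5 comparisons. In the EglN2 shRNA line, 0 of 36 members were called between day 2 and day 0, with 0.00943% of all named probe sets called, and 0 members had an unadjusted p under 0.05, against 5.77% of all. In the Scr line 0 members and 0% of all probe sets were called, and 4 members had an unadjusted p under 0.05: PSMB8, PSMB9 and PSMA1, 3 genes higher at day 2 (7.49% of all), and PSMB10, 1 gene lower (5.36% of all). The difference between these changes, EglN2 shRNA minus Scr line, called 0 members and 0% of all, with 0 members and 7.12% of all at an unadjusted p under 0.05. At day 0 the EglN2 shRNA line against the Scr line called 0 members and 0% of all, with 2 members, PSMB8 and POMP, at an unadjusted p under 0.05, both higher (5.16% of all were higher, 10.4% in either direction). At day 2 that comparison called 0 members and 0.0754% of all, with 0 members and 5.19% of all at an unadjusted p under 0.05. The 95% interval of a member's difference reached 0.264 to either side in the median, and 0.374 for the difference of changes. Differences of the sizes given below were therefore mostly not detectable with 2 arrays per group. RNA was taken from whole cultures, in which fewer cells expressing a gene and less of its RNA per cell cannot be told apart.

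By counts alone, the classes did not read the same way in each comparison. In the EglN2 shRNA line, 30 of 36 members read lower at day 2 than at day 0 (47.8% of all probe sets did). They included 14 of 14 genes of the 19S cap and 12 of 14 of the 20S core. Among the inducible subunits and activators 4 of 7 read higher (57.1%), near the share of all probe sets (50.6%). Of these 4, PSMB8 read -0.02 without the second EglN2 shRNA day 0 array. PSMB10, which read lower with all arrays (-0.035), turned to 0.26 without the first. Without the first EglN2 shRNA day 0 array 21 of 36 read lower (46.6% of all), with 12 of 14 in the cap and 6 of 14 in the core. Medians were -0.11 for the 19S cap, -0.055 for the 20S core and 0.135 for the inducible subunits and activators, beside 0.005 for all probe sets. The last of these was 0.26 without the first EglN2 shRNA day 0 array, -0.02 without the second, and 0.06 without the second day 2 array. For the Scr line, 26 of 36 read higher at day 2 (47.5% of all did), but without the first Scr day 0 array 18 read higher and 18 lower (50.2% of all higher). The Scr medians were 0.0825 for the 20S core, -0.0025 for the 19S cap and 0.20 for the inducible subunits and activators, beside -0.01 for all. The Scr medians moved with single arrays: without the first Scr day 0 array the medians were 0, -0.045 and 0.105, and without the second they were 0.175, 0.105 and 0.31. After quantile normalization the median of all 36 members was -0.0044, against 0.0675 as deposited.

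**Figure D2:**
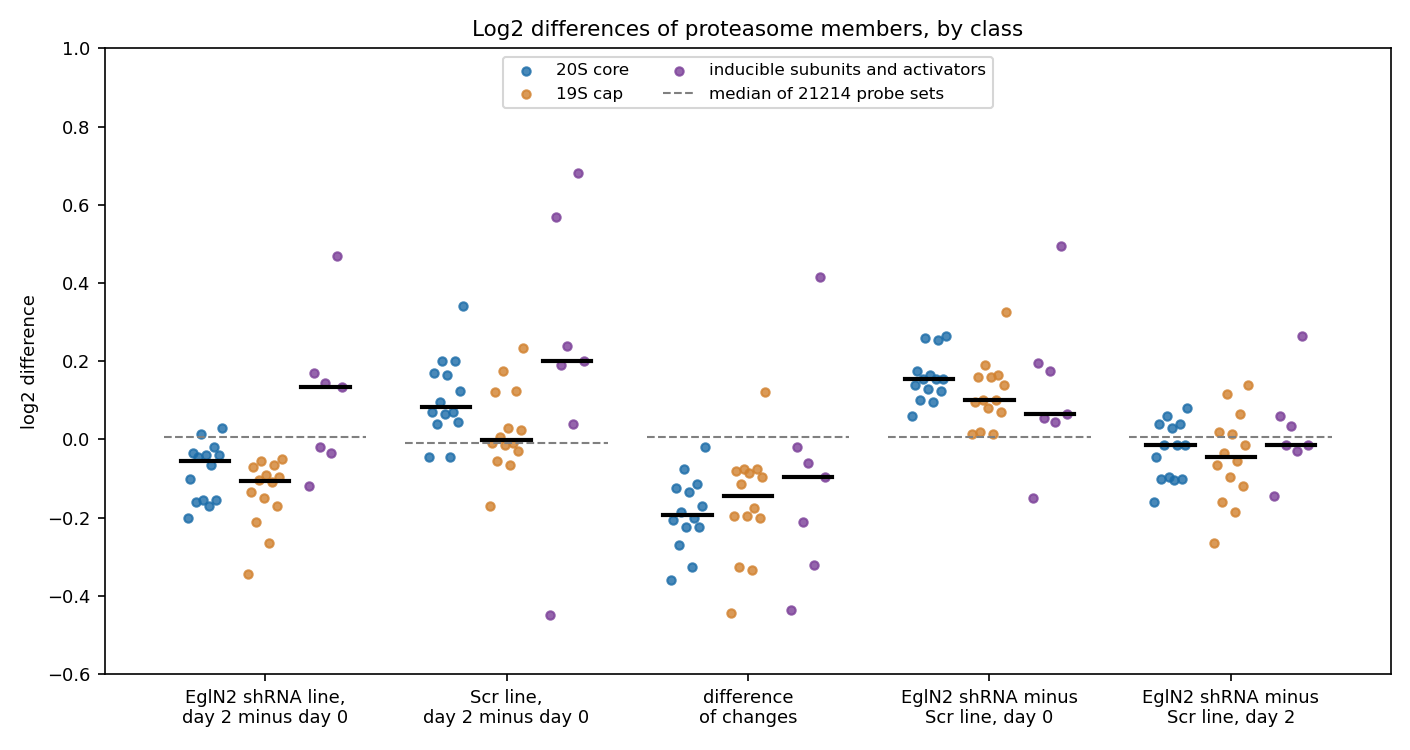
Log2 difference (vertical axis) of each member in the 5 comparisons (horizontal axis), 1 point a gene, coloured by class; black bars are class medians and dashed lines the median of all 21214 named probe sets. All 14 points of the 19S cap lie below 0 in the EglN2 shRNA line, and in the Scr line the points of the inducible subunits and activators spread from -0.45 to 0.68.

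The alpha ring genes of the 20S core encode the subunits that form the outer rings and the gate of the barrel. PSMA1 read 11.54 and 11.43 in the EglN2 shRNA line at day 2 and 11.54 and 11.47 at day 0, against 11.57 and 11.60 in the Scr line at day 2 and 11.05 and 11.44 at day 0. The low value was the first Scr day 0 array, and in the Scr line the day 2 pair lay above the day 0 pair. The Scr difference of 0.34 ± 0.134 (SE) had an unadjusted p of 0.0302 and an adjusted p of 0.354 by limma, and it was 0.145 without that array. PSMA3 read 10.93 and 11.22 in the EglN2 shRNA line at day 2 and 11.30 and 11.25 at day 0, against 11.23 and 11.24 in the Scr line at day 2 and 10.94 and 11.28 at day 0. Its first EglN2 shRNA day 2 array and first Scr day 0 array were the low ones, and the differences were -0.20 in the EglN2 shRNA line and 0.125 in the Scr line (adjusted p = 0.962 and 0.705 by limma). Without the low array of each line they were -0.055 and -0.045.

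PSMA4 read 12.54 and 12.52 in the EglN2 shRNA line at day 2 and 12.53 and 12.50 at day 0, against 12.52 and 12.63 in the Scr line at day 2 and 12.22 and 12.53 at day 0. Apart from the first Scr day 0 array the values lay between 12.50 and 12.63, and the Scr difference was 0.20 (adjusted p = 0.493 by limma), or 0.045 without that array. PSMA5 read 10.88 and 10.77 in the EglN2 shRNA line at day 2 and 10.91 and 10.82 at day 0, against 10.71 and 10.82 in the Scr line at day 2 and 10.45 and 10.75 at day 0. At day 0 both EglN2 shRNA arrays lay above both Scr arrays, by 0.265 (adjusted p = 0.488 by limma), which was 0.115 without the first Scr array. PSMA6 read 12.50 and 12.49 in the EglN2 shRNA line at day 2 and 12.62 and 12.68 at day 0, against 12.57 and 12.62 in the Scr line at day 2 and 12.42 and 12.63 at day 0. Here the EglN2 shRNA pairs did not overlap, with day 2 lower by a difference of -0.155 (adjusted p = 0.960 by limma), and the Scr pairs did. PSMA2 and PSMA7 complete the alpha ring, and their differences lay between -0.27 (PSMA2, difference of changes) and 0.255 (PSMA2, EglN2 shRNA against Scr at day 0). Those PSMA2 values were -0.07 and 0.055 without the first Scr day 0 array.

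In the beta ring, PSMB5 carries the chymotrypsin-like site, PSMB7 the trypsin-like site and PSMB6 the caspase-like site, and PSMB2, PSMB3 and PSMB4 are structural. PSMB5 read 10.37 and 10.12 in the EglN2 shRNA line at day 2 and 10.25 and 10.18 at day 0, against 10.18 and 10.34 in the Scr line at day 2 and 9.89 and 10.23 at day 0. The pairs overlapped in all 4 comparisons between groups, and the Scr difference of 0.20 (adjusted p = 0.550 by limma) came with a low first day 0 array, without which it was 0.03. PSMB7 read 12.55 and 12.60 in the EglN2 shRNA line at day 2 and 12.67 and 12.55 at day 0, against 12.46 and 12.53 in the Scr line at day 2 and 12.33 and 12.58 at day 0. Its largest difference was 0.155 between the lines at day 0, where the pairs overlapped (adjusted p = 0.605 by limma), and it was 0.03 without the first Scr array.

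PSMB2 read 11.49 and 11.34 in the EglN2 shRNA line at day 2 and 11.54 and 11.61 at day 0, against 11.48 and 11.54 in the Scr line at day 2 and 11.42 and 11.47 at day 0. Its pairs stood apart in each line, lower at day 2 in the EglN2 shRNA line (-0.16, adjusted p = 0.950 by limma) and higher at day 2 in the Scr line (0.065, adjusted p = 0.799 by limma). PSMB4 read 13.11 and 13.13 in the EglN2 shRNA line at day 2 and 13.27 and 13.28 at day 0, against 13.20 and 13.25 in the Scr line at day 2 and 13.15 and 13.21 at day 0. The EglN2 shRNA line held both the highest pair (day 0) and the lowest pair (day 2), a difference of -0.155 ± 0.0964 (SE; adjusted p = 0.945 by limma). PSMB3 read 13.15 and 12.98 in the EglN2 shRNA line at day 2 and 13.20 and 13.01 at day 0, against 13.00 and 13.05 in the Scr line at day 2 and 12.91 and 12.95 at day 0. The first replicate was the higher in each EglN2 shRNA pair, and at day 0 that pair lay above the Scr pair by 0.175 (adjusted p = 0.557 by limma). PSMB1 and PSMB6 gave differences between -0.17 (PSMB6, EglN2 shRNA line) and 0.155 (PSMB6, between the lines at day 0).

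Over the 20S core, 6 of 14 genes had EglN2 shRNA day 2 arrays that both lay below the day 0 arrays, and 0 the other way (15.5% and 15.2% of all probe sets). Without the second EglN2 shRNA day 0 array it was 11 of 14 (30.1% of all). With the first left out instead, PSMA2, PSMA3, PSMA6, PSMB2, PSMB4 and PSMB6 were below and PSMA4 lay above. Pairs that stand apart with all arrays cannot overlap once an array is left out, so this does not measure how stable those genes are. The share of all probe sets for this setting is not given. In the Scr line 3 of 14 had both day 2 arrays above both day 0 arrays and none below (23% and 24.8% of all), which was 3 above and 4 below without the first Scr day 0 array (37.2% and 36.2% of all) and 12 and 1 without the second (36.2% and 42.7%). Without the first EglN2 shRNA day 0 array the median in that line was 0.0075, and without the second it was -0.12, against -0.055 with all arrays.

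The ATPase ring of the 19S cap unfolds substrates and feeds them into the core. PSMC1 and PSMC6 gave the most negative differences of all members in the EglN2 shRNA line. PSMC1 read 11.70 and 11.90 in the EglN2 shRNA line at day 2 and 12.13 and 12.00 at day 0, against 12.05 and 11.92 in the Scr line at day 2 and 11.97 and 12.13 at day 0. The EglN2 shRNA day 2 pair was the lowest and lay apart from the day 0 pair, with a difference of -0.265 ± 0.119 (SE; unadjusted p = 0.0513, adjusted p = 0.868 by limma), while the Scr pairs overlapped (-0.065). PSMC6 read 10.32 and 10.76 in the EglN2 shRNA line at day 2 and 10.92 and 10.85 at day 0, against 10.83 and 10.78 in the Scr line at day 2 and 10.65 and 10.98 at day 0. Its EglN2 shRNA difference of -0.345 ± 0.159 (SE; unadjusted p = 0.0562, adjusted p = 0.877 by limma) came with a first day 2 array that was the lowest of the 8, and it was -0.125 without that array. Each of these genes has a second probe set under the same name, which read -0.285 for PSMC1 and -0.22 for PSMC6 in the EglN2 shRNA line. Whether either set also detects a close copy of its gene was not tested.

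PSMC2 read 11.47 and 11.52 in the EglN2 shRNA line at day 2 and 11.69 and 11.64 at day 0, against 11.51 and 11.59 in the Scr line at day 2 and 11.43 and 11.62 at day 0. The EglN2 shRNA pairs did not overlap (-0.17, adjusted p = 0.945 by limma), and the Scr pairs did (0.025). PSMC4 read 11.50 and 11.30 in the EglN2 shRNA line at day 2 and 11.48 and 11.45 at day 0, against 11.31 and 11.36 in the Scr line at day 2 and 11.29 and 11.32 at day 0. Its day 0 pair in the EglN2 shRNA line lay above both Scr day 0 arrays by 0.16 (adjusted p = 0.568 by limma), and its first Scr array did not stand out. PSMC3, the other measured ATPase, gave -0.105 in the EglN2 shRNA line and -0.03 in the Scr line.

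The other 19S subunits build the base and the lid. PSMD14, the deubiquitinase that clips ubiquitin from the substrate, read 11.29 and 11.34 in the EglN2 shRNA line at day 2 and 11.47 and 11.46 at day 0, against 11.42 and 11.53 in the Scr line at day 2 and 11.14 and 11.46 at day 0. The EglN2 shRNA day 2 pair lay below its day 0 pair (-0.15, adjusted p = 0.973 by limma) and below the Scr day 2 pair (-0.16, adjusted p = 0.995 by limma). PSMD12, a lid subunit, read 10.99 and 11.15 in the EglN2 shRNA line at day 2 and 11.26 and 11.30 at day 0, against 11.14 and 11.24 in the Scr line at day 2 and 10.71 and 11.20 at day 0. Its difference of changes was -0.445 ± 0.217 (SE; unadjusted p = 0.0685, adjusted p = 0.702 by limma), the most negative of the members, and it was -0.20 without the first Scr day 0 array. At day 0 the lines differed by 0.325 (adjusted p = 0.489 by limma), and by 0.08 without that array.

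PSMD2, the large base subunit that docks ubiquitin shuttles, read 11.88 and 11.92 in the EglN2 shRNA line at day 2 and 12.03 and 11.91 at day 0, against 11.88 and 11.99 in the Scr line at day 2 and 11.81 and 11.81 at day 0. The Scr pairs stood apart by 0.125 (adjusted p = 0.601 by limma), with equal values on both Scr day 0 arrays. PSMD3, a lid subunit, read 11.68 and 11.63 in the EglN2 shRNA line at day 2 and 11.84 and 11.74 at day 0, against 11.70 and 11.74 in the Scr line at day 2 and 11.78 and 11.77 at day 0. Day 2 lay below day 0 in each line, by differences of -0.135 in the EglN2 shRNA line and -0.055 in the Scr line (adjusted p = 0.962 and 0.824 by limma). PSMD8, another lid subunit, read 11.09 and 10.95 in the EglN2 shRNA line at day 2 and 11.19 and 10.95 at day 0, against 10.94 and 10.82 in the Scr line at day 2 and 11.02 and 11.08 at day 0. It was the member of the 19S cap with the most negative Scr difference (-0.17, adjusted p = 0.544 by limma) and the only member of the cap whose difference of changes was above 0 (0.12).

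The remaining non-ATPase subunits, PSMD1, PSMD4, PSMD6 and PSMD11, gave differences between -0.11 and -0.055 in the EglN2 shRNA line and between -0.015 and 0.12 in the Scr line. Over the 19S cap, 9 of 14 genes had both EglN2 shRNA day 2 arrays below both day 0 arrays and none above, against 15.5% and 15.2% of all probe sets. Among the Scr pairs 2 of 14 stood apart upward and 2 downward, against 23% and 24.8% of all. Without the first Scr day 0 array these were 2 and 8 (37.2% and 36.2% of all), and without the second 9 and 2 (36.2% and 42.7%). The cap's median in the EglN2 shRNA line stayed below 0 whichever array was left out, from -0.175 without the second EglN2 shRNA day 0 array to -0.0875 without the first.

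The inducible catalytic subunits varied most among the members. PSMB8, which takes the place of PSMB5, read 9.55 and 9.69 in the EglN2 shRNA line at day 2 and 9.64 and 9.33 at day 0, against 9.46 and 9.66 in the Scr line at day 2 and 8.86 and 9.12 at day 0. The Scr day 0 pair lay below all 6 other arrays, and the EglN2 shRNA pairs overlapped. In the Scr line the day 2 minus day 0 difference was 0.57 ± 0.144 (SE), or 1.48-fold, with an unadjusted p of 0.00292 and an adjusted p of 0.258 by limma. It was 0.44 without the first Scr day 0 array. In the EglN2 shRNA line it was 0.135 (adjusted p = 0.979 by limma; 0.29 without the first day 0 array and -0.02 without the second), and the difference of changes, -0.435 ± 0.203 (SE; adjusted p = 0.698 by limma), did not pass. At day 0 the EglN2 shRNA line read 0.495 ± 0.144 (SE) above the Scr line (unadjusted p = 0.00674, adjusted p = 0.455 by limma), and at day 2 the lines differed by 0.06. That day 0 difference was 0.365 and 0.625 without the first and the second Scr array, and 0.34 and 0.65 without those of the EglN2 shRNA line. Leaving out the same arrays in that order, the difference of changes was -0.305, -0.565, -0.28 and -0.59.

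PSMB9, which takes the place of PSMB6, read 9.31 and 9.19 in the EglN2 shRNA line at day 2 and 9.13 and 8.43 at day 0, against 9.24 and 9.29 in the Scr line at day 2 and 8.91 and 8.26 at day 0. Day 2 lay above day 0 in each line, and the second day 0 array was the low one in each. The differences were 0.47 ± 0.240 (SE; adjusted p = 0.899 by limma) in the EglN2 shRNA line and 0.68 ± 0.240 (SE; unadjusted p = 0.0186, adjusted p = 0.330 by limma) in the Scr line. The Scr difference was 1.005 without the first Scr day 0 array and 0.355 without the second, and the EglN2 shRNA difference was 0.82 and 0.12 without the first and the second day 0 array of that line. The changes of the lines differed by -0.21 (adjusted p = 0.889 by limma), which was -0.535 without the first Scr day 0 array and 0.115 without the second.

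PSMB10, which takes the place of PSMB7, read 8.57 and 8.63 in the EglN2 shRNA line at day 2 and 8.93 and 8.34 at day 0, against 8.41 and 8.26 in the Scr line at day 2 and 8.84 and 8.73 at day 0. Both Scr day 2 arrays lay below both Scr day 0 arrays, opposite in direction to PSMB8 and PSMB9, and the EglN2 shRNA day 0 pair enclosed the day 2 pair of its line. The Scr difference was -0.45 ± 0.171 (SE; unadjusted p = 0.0260, adjusted p = 0.351 by limma), -0.395 without the first Scr day 0 array. The EglN2 shRNA difference was -0.035, or 0.26 without the first day 0 array of that line and -0.33 without the second, and the difference of changes 0.415 (adjusted p = 0.720 by limma). PSMB8 and PSMB9 each have 3 probe sets with identical values on all 8 arrays, so each counts as 1 measurement.

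**Figure D3:**
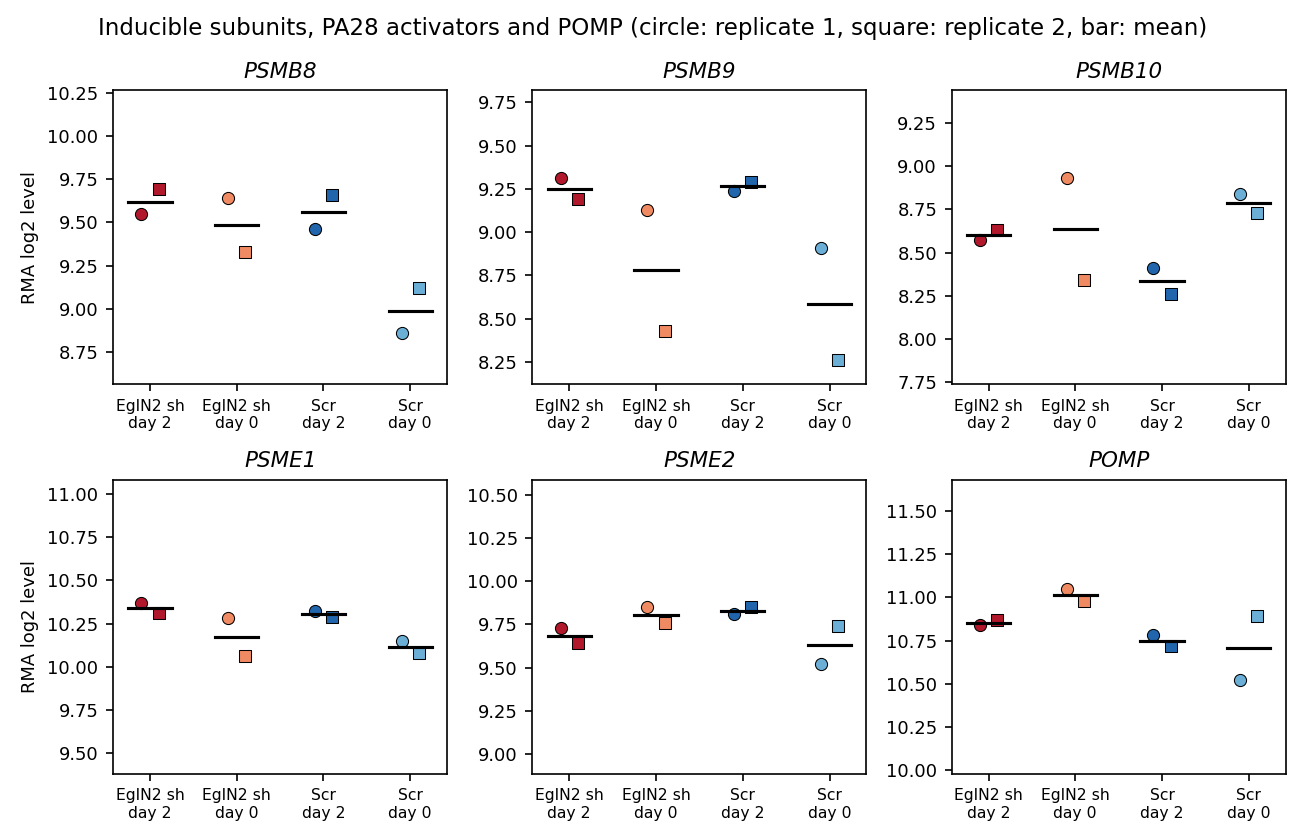
Log2 level (vertical axis) of PSMB8, PSMB9, PSMB10, PSME1, PSME2 and POMP in the 4 groups (horizontal axis), with replicate 1 as circles, replicate 2 as squares and the mean as a bar; every panel spans the same log2 range. PSMB8 is lowest in the Scr day 0 pair (8.86 and 9.12), PSMB9 has a low second replicate at day 0 in each line (8.43 and 8.26), and PSMB10 is lower at day 2 than at day 0 in the Scr line.

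The activators cap the core in place of, or opposite, the 19S particle. PSME1, the alpha chain of PA28, read 10.37 and 10.31 in the EglN2 shRNA line at day 2 and 10.28 and 10.06 at day 0, against 10.32 and 10.29 in the Scr line at day 2 and 10.15 and 10.08 at day 0. Day 2 lay above day 0 without overlap in each line, by 0.17 in the EglN2 shRNA line and 0.19 in the Scr line (adjusted p = 0.950 and 0.473 by limma). PSME2, the beta chain, read 9.73 and 9.64 in the EglN2 shRNA line at day 2 and 9.85 and 9.76 at day 0, against 9.81 and 9.85 in the Scr line at day 2 and 9.52 and 9.74 at day 0. Its pairs stood apart in opposite directions, -0.12 in the EglN2 shRNA line and 0.20 in the Scr line, with a difference of changes of -0.32 ± 0.158 (SE; unadjusted p = 0.0711, adjusted p = 0.702 by limma). Without the first Scr day 0 array that difference was -0.21 and the Scr difference 0.09.

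PSME4, the PA200 activator of the nucleus, read 9.73 and 10.00 in the EglN2 shRNA line at day 2 and 9.64 and 9.80 at day 0, against 9.84 and 9.95 in the Scr line at day 2 and 9.50 and 9.81 at day 0. The second replicate was the higher in all 4 groups, and the differences were 0.145 in the EglN2 shRNA line and 0.24 in the Scr line (adjusted p = 0.977 and 0.479 by limma), the second being 0.085 without the first Scr day 0 array. PSME3, the nuclear PA28 gamma chain, lay between -0.06 and 0.045 in the 5 comparisons. POMP, the chaperone that assembles the beta rings, read 10.84 and 10.87 in the EglN2 shRNA line at day 2 and 11.05 and 10.98 at day 0, against 10.78 and 10.72 in the Scr line at day 2 and 10.52 and 10.89 at day 0. At day 0 both EglN2 shRNA arrays lay above both Scr arrays, by 0.31 ± 0.129 (SE; unadjusted p = 0.0381, adjusted p = 0.464 by limma), and the difference was 0.125 without the first Scr array.

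Between the lines, 20 of 36 members (55.6%) read lower at day 2 in the EglN2 shRNA line and higher at day 2 in the Scr line, as 21.5% of all probe sets did. The reverse held for 0 members and for 24.7% of all probe sets. They were 10 of 14 genes of the 20S core, 7 of 14 of the 19S cap, 2 of 7 inducible subunits and activators, and POMP. Without the first Scr day 0 array the first count was 12 of 36 (33.3%, against 21.8% of all), with 5 genes each of the core and the cap. Without the first EglN2 shRNA day 0 array it was 15 with 4 the other way. The shares of all probe sets in that last setting are not given, so whether these counts depart from them cannot be read here. The difference of changes was below 0 for 34 of 36 members (48.4% of all probe sets), with medians of -0.19 for the 20S core, -0.145 for the 19S cap and -0.095 for the inducible subunits and activators. PSMB10 and PSMD8 were the exceptions. It was below 0 for 30 members without the first Scr day 0 array (49.9% of all). At day 0, 35 of 36 members read higher in the EglN2 shRNA line than in the Scr line (50.1% of all), PSMB10 being the exception, with medians of 0.155, 0.10 and 0.065. Without the first Scr day 0 array 27 read higher (51.8% of all) and 9 lower: PSMA3, PSMA4, PSMB1, PSMB5, PSMC1, PSMC6, PSMD8, PSMB10 and PSME4. Without the first EglN2 shRNA day 0 array 28 read higher and 8 lower (48.8% and 50.4% of all). The pairs did not overlap for 16 members, each higher in the EglN2 shRNA line, where 22.2% of all probe sets stood apart that way and 22.9% the other way. Without the first Scr day 0 array 20 stood apart upward and 2 downward (36.9% and 32.9% of all), and without the second EglN2 shRNA day 0 array 29 and 0 (35% and 33.4% of all). Once the first EglN2 shRNA day 0 array was left out, PSMD3, PSMD4, PSMD8, PSMB10 and PSME1 stood apart downward, while other members stood apart upward. Over all probe sets, standing apart is more common with an array left out, as the shares above show. The share for this last setting is not given, so these names are not read as a result. At day 2, 14 read higher and 22 lower (50.3% and 48.1% of all), with medians between -0.045 and -0.015; 4 pairs stood apart upward and 10 downward, against 15.6% and 14.8% of all.

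The Scr day 0 arrays enter the Scr change, the difference of changes and the day 0 comparison alike, so these 3 results are not separate observations. Without the first of them the median difference of changes over the members was -0.095, against -0.18 with all arrays, and the median day 0 difference was 0.06, against 0.14. By class, the median difference of changes without that array was -0.08 for the core, -0.11 for the cap and -0.125 for the inducible subunits and activators, and the median day 0 difference was 0.06, 0.0425 and 0.09. Without the second Scr day 0 array the core had -0.29 and 0.255, and the cap -0.21 and 0.1675. Between these replicates the members differed by a median of -0.18, first minus second, and 13 of 14 core genes were lower on the first, while the median over all probe sets was 0.01. For the inducible subunits and activators the median difference of changes was 0.005 and the median day 0 difference 0.02 without the second Scr day 0 array.

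**Figure D4:**
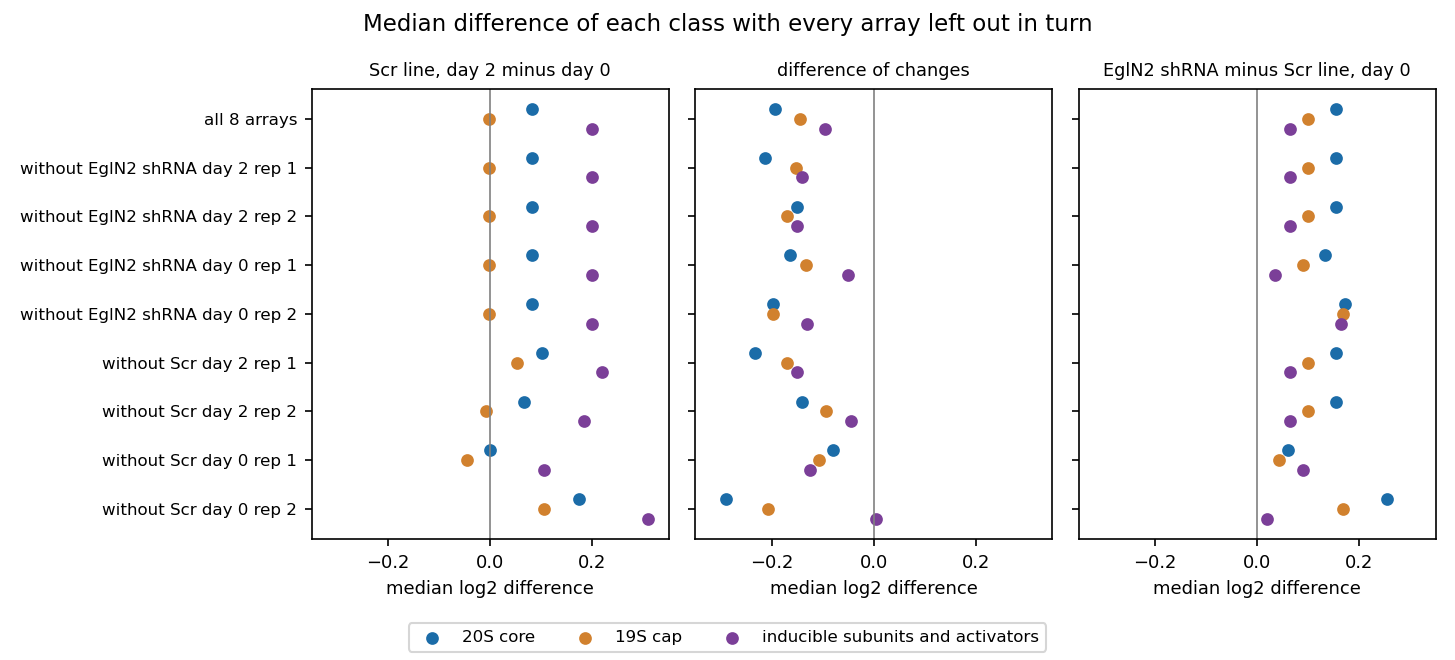
Median log2 difference (horizontal axis) of the 20S core, the 19S cap and the inducible subunits and activators in 3 comparisons that share the Scr day 0 arrays, with all 8 arrays and with each array left out in turn (rows). The medians of the core shift most when a Scr day 0 array is left out: its day 0 difference is 0.06 without the first and 0.255 without the second.

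Other genes of the ubiquitin-proteasome pathway were read from lists, and none passed an adjusted p of 0.05 by limma in any comparison. All 18 of the other proteasome subunits and regulators were measured, and their medians were -0.065 in the EglN2 shRNA line and 0.0225 in the Scr line. PSMG4, an assembly chaperone, was the lead of this list at day 0, 0.36 higher in the EglN2 shRNA line than in the Scr line (unadjusted p = 0.0163, adjusted p = 0.455 by limma). It read 7.40 and 7.72 in the EglN2 shRNA line, against 7.21 and 7.19 in the Scr line. Of the 6 measured genes of proteasome transcription control, FOXO4, a forkhead factor, read 7.67 and 7.63 in the EglN2 shRNA line at day 2 and 7.24 and 7.30 at day 0, apart by 0.38 (unadjusted p = 0.00692, adjusted p = 0.562 by limma). In Scr cells it differed by 0.155. NFE2L1, the factor that restores proteasome genes when the proteasome is inhibited, differed by 0.045 in the EglN2 shRNA line and 0.01 in the Scr line. NGLY1, the glycanase that activates it, differed by 0.115 and 0.28 (adjusted p = 0.973 and 0.352 by limma).

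Ubiquitin supply and delivery was measured with 11 of 15 genes. Of these, 9 read lower at day 2 in the EglN2 shRNA line and 8 in the Scr line (47.8% and 51.4% of all probe sets). SQSTM1, an autophagy receptor that binds ubiquitin, differed by -0.27 in the EglN2 shRNA line and -0.195 in the Scr line (adjusted p = 0.854 and 0.492 by limma). UBA6, a ubiquitin-activating enzyme, differed by 0.455 in the Scr line (adjusted p = 0.332 by limma), where its first day 0 array read 9.25 against 9.76 on the second. PSMB8, PSMB9 and PSMB10 also belong to the interferon-responsive antigen presentation genes. Of 8 measured genes of the MHC class I peptide pathway, 7 read higher at day 2 in the EglN2 shRNA line and 5 in the Scr line. The shares of all probe sets that read higher were 50.6% and 47.5%. The Scr differences with the smallest p were those of ERAP2, a peptide-trimming protease, at 0.52, and TAP2, a peptide transporter, at 0.295 (adjusted p = 0.352 and 0.382 by limma). Of 9 interferon signalling genes, 7 read higher at day 2 in the EglN2 shRNA line and 8 in the Scr line (50.6% and 47.5% of all). IFNGR1, a chain of the interferon gamma receptor, differed by 0.305 in the Scr line (adjusted p = 0.335 by limma). Its means in the EglN2 shRNA line were 8.73 at day 2 and 8.77 at day 0. JAK2 had the smallest p of this list in the EglN2 shRNA line, at -0.315 (unadjusted p = 0.0266, adjusted p = 0.768 by limma). It is dim, at 6.01 and 6.17 at day 2 and 6.53 and 6.28 at day 0 in that line, near the endothelial markers (5.75 to 6.16). These lists were not read with arrays left out. TAP1, whose promoter window shares bases with that of PSMB9, read 10.39 and 10.53 in the Scr line at day 2 and 10.37 and 10.10 at day 0. The second Scr day 0 array was low, as it was for PSMB9, but this was not particular to the pair. On the Scr day 0 arrays ERAP2 read 7.82 and 7.45 and CALR, of the same list, 12.39 and 12.03. IFNAR1, an interferon signalling gene, went the other way (9.38 and 10.18). A link to the shared window was not tested.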

How the data were processed

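Biotin-labelled total RNA of T47D cells was hybridised to 8 arrays, 2 for each of the 4 groups, which were read from the sample titles. Per the submitters' processing notes, the authors made the log2 values with RMA in Affymetrix Expression Console, with no versions stated in the sources used here. RMA removes background, equalises the arrays and combines the probes of each set, and it can compress differences of dim genes. The deposited log2 values run from 2.73 to 15.25 and were used with no further scaling. Scanner signals over background were not analysed here.

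Of 33297 probe sets, 21214 carry a gene name and 19460 carry a single name, of which 19429 were matched to RefSeq by gene ID. Members and lists were read from probe sets with 1 name, except EGLN2. A gene with several probe sets was represented by the set with the highest mean. A limma model (version 3.58.1, R 4.3.3; lmFit, eBayes) of the 4 group means used every array, with 4 residual and 5.53 prior degrees of freedom. Tests were two-sided, with Benjamini-Hochberg adjustment over the 21214 probe sets and a threshold of 0.05, and the procedure was tested on simulated data. With 2 arrays against 2, the smallest p of an exact permutation test is 0.333, so that test was left out. Values on all arrays are given for the inducible subunits, PSME1, PSME2 and POMP and, in every role, for the 2 members with the largest absolute moderated t in each comparison. At most 3 other pathway genes were named per list and comparison, those with the smallest p; NFE2L1 and TAP1 were added after their values were seen. The members and lists were chosen with earlier results of these data known. Alternatives were other normalizations, sets of probe sets and prior variances, the replicate number as a block, and each array left out.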

Additional observations from a re-analysis of the deposited data

How the results depend on the processing

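No member passed the threshold under any alternative tried, and each count of members called was 0 throughout. The number of all named probe sets called moved more. With the replicate number as a block, a pairing that the labels do not state (deviations of same-numbered arrays correlated between 0.0981 and 0.271), the replicate block called 13 in the EglN2 shRNA line, 42 in the Scr line and 32 between the lines at day 2, against 2, 0 and 16. With a prior variance that follows intensity, the counts were 5, 7 and 31, and 2 for the difference of changes, against 0. With all probe sets of the table, 0 were called in the EglN2 shRNA line and 0 between the lines at day 2, and with the arrays of the EglN2 shRNA line alone, 0. Leaving out each array in turn gave 0 to 2 in the EglN2 shRNA line, 0 to 15 between the lines at day 2, and 0 elsewhere.

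Quantile normalization and cyclic loess moved several class medians. In the Scr line they gave -0.0044 and -0.0048 for all members, -0.0712 and -0.0720 for the 19S cap, and 0.1238 with quantile normalization for the inducible subunits and activators. For the difference of changes they gave -0.0970 and -0.0949 for all members, -0.0509 and -0.0588 for the cap, -0.0203 and -0.0201 for the inducible subunits and activators, and -0.1096 with loess for the core. Between the lines at day 0 they gave 0.0630 and 0.0497 for all members, 0.0077 and 0.0148 for the cap, -0.0200 and -0.0154 for the inducible subunits and activators, and 0.0648 with loess for the core. The cause was not tested.

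With each array left out in turn, the median over all members ranged from -0.1275 to -0.0400 in the EglN2 shRNA line, 0 to 0.155 in the Scr line, -0.225 to -0.095 for the difference of changes, 0.060 to 0.20 at day 0 and -0.0775 to 0.015 at day 2. The core ranged from -0.12 to 0.0075, 0 to 0.175, -0.29 to -0.08, 0.060 to 0.255 and -0.0825 to 0 in the same order. The cap ranged from -0.175 to -0.0875, -0.045 to 0.105, -0.2075 to -0.0925, 0.0425 to 0.1675 and -0.0875 to 0.0025. The inducible subunits and activators ranged from -0.02 to 0.26, 0.105 to 0.31, -0.15 to 0.005, 0.02 to 0.165 and -0.04 to 0.045. Of 2262 values of single members under alternatives, 92 had the opposite sign and 2086 moved by less than the replicate SD. Many of these could not move, as leaving out an array outside a comparison or filtering probe sets leaves the log2 difference as it was. The 2 counts therefore do not measure how far single arrays shift a member. Precision is limited by 2 arrays per group.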
